A study of Mus musculus with 12 samples.

Results

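The transcripts described are those of 29 enzymes and carriers listed for the tricarboxylic acid (TCA) cycle, the pyruvate dehydrogenase complex, pyruvate import, anaplerosis and malate-aspartate exchange in mouse gastrocnemius, a mostly fast-twitch calf muscle. They were taken from the list by gene symbol. The list was chosen with earlier results of these data known, so its counts beside all genes are descriptive. Of the 29, 28 had a probeset with a single gene symbol and all 28 passed the filter on dim genes, out of 13308 genes tested and 22180 with such a probeset. Mpc2, the partner of Mpc1 in the mitochondrial pyruvate carrier, was not analysed here. RNA was hybridised to 12 arrays in 4 groups of 3: ERRα-null mice 2 h after an exhaustive treadmill run, wild-type (WT) mice at the same time after such a run, sedentary ERRα-null mice and sedentary WT mice. All were labelled as FVB males 2 to 3 months old. Affymetrix Mouse Gene 2.0 ST arrays were used, and values are the authors' log2 RMA expression values, so that a difference of 1 is a doubling. The labels do not describe the null allele or say whether the loss was limited to muscle.

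The TCA cycle oxidises acetyl-CoA in the mitochondrial matrix and passes electrons to the respiratory chain. Pyruvate enters through the mitochondrial pyruvate carrier and is converted to acetyl-CoA by the pyruvate dehydrogenase complex, whose activity is held down by kinases and released by phosphatases. Anaplerotic enzymes refill the cycle's intermediates, and the malate-aspartate shuttle carries reducing equivalents of cytosolic NADH into the matrix. ERRα, the orphan nuclear receptor encoded by Esrra, is known as an activator of genes of oxidative metabolism in muscle and heart.

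Some labels and values bear on every comparison. Groups were taken from the sample titles, but the source name gives the opposite exercise state for the sedentary ERRα-null and exercised WT arrays. Ppargc1a, a coactivator induced by exercise, lay between 11.38 and 12.15 on the arrays titled exercised and between 9.36 and 10.16 on those titled sedentary, so it followed the titles. Esrra was 6.85, 6.58 and 6.73 in exercised ERRα-null muscle against 7.47, 7.63 and 7.41 in exercised WT muscle, and 6.55, 6.89 and 6.68 in sedentary ERRα-null muscle against 7.61, 7.57 and 7.41 in sedentary WT muscle. Every ERRα-null array lay below every WT array, with a log2 difference of -0.80 ± 0.08 averaged over both states (limma, adjusted p = 0.00121). Signal remained in the null muscle, and whether its probes lie in the deleted part is not given in the sources used here. Despite the male label, exercised ERRα-null replicates 2 and 3 and exercised WT replicate 3 had Xist at 7.82 to 7.90, against 3.66 to 4.30 on the other 9 arrays, and low Y-linked transcripts. Transcripts of other tissues also varied. Alb of liver ran from 6.24 to 12.82 and Ucp1 of brown fat from 4.59 to 10.93, and sedentary ERRα-null replicate 1 alone carried seminal vesicle transcripts, with Svs5 at 12.98 against at most 4.49 elsewhere. The array means of the 7 skeletal muscle markers ran from 12.79 in sedentary WT replicate 3 to 12.99 in sedentary WT replicate 2. In whole muscle, fewer cells of a type and less RNA per cell cannot be told apart.

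The upstream sequences of Pdha1, Dld and Fh1 are shown because these transcripts were lower in ERRα-null muscle both in the average over states and after exercise. Each run is the 250 bases before the gene's start from RefSeq (GRCm38.p6), 5′ to 3′ on the gene's own strand, which is the minus strand for all 3 genes. The Pdha1 window is chrX:160138431-160138680, the Dld window is chr12:31351472-31351721 and the Fh1 window is chr1:175625636-175625885. Capitals mark the nuclear receptor half-site AGGTCA and the CCAAT box on either strand.
Pdha1: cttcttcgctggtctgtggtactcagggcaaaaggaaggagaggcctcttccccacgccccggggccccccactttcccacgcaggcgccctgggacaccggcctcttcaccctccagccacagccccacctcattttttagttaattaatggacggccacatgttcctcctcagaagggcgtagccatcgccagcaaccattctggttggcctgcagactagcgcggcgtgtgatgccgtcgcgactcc
Dld: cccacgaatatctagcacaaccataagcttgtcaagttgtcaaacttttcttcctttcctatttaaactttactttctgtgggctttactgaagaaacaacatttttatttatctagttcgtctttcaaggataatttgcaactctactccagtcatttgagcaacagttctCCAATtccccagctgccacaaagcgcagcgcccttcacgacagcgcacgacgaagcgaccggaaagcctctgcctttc
Fh1: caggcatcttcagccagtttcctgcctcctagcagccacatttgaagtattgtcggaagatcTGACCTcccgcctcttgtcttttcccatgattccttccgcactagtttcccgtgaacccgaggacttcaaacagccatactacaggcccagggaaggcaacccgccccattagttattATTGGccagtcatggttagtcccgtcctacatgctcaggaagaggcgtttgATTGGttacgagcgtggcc
Fh1 had 1 half-site and 2 CCAAT boxes, Dld had 1 CCAAT box and Pdha1 had neither. Windows were found for 27 of the 29 members, not for Idh3a or Me2. The extended ERR response element TNAAGGTCA, searched on both strands and containing the half-site, was in 0 of the 27 windows and in 1.30% of all genes' windows. The half-site itself was in 5 of 27 (Sucla2, Fh1, Got1, Got2 and Mpc1) against 15.8% of all genes. The CCAAT box was in 15 of 27 against 37.5% of all genes, and the GC box GGGCGG in 19 of 27 against 35.4%. These matches describe the letters of 250-base windows only.

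Most TCA cycle and pyruvate dehydrogenase transcripts were lower in ERRα-null muscle. Averaged over both exercise states, 10 of the 28 members fell and none rose at an adjusted p under 0.05, while 0.999% of all tested genes were called lower in the same comparison. The 10 were Pdha1, Dlat and Dld of the pyruvate dehydrogenase complex, Idh3b and Idh3g of the NAD-dependent isocitrate dehydrogenase, Dlst, Sucla2, Suclg1, Fh1 and Mdh2. Their differences were modest, between -0.44 and -0.22. The median difference was -0.21 over the 28 members and 0.00 over all genes, and 26 of the 28 were lower, against 49.8% of all genes. At an unadjusted p under 0.05 there were 20 of 28, against 12.4%. In 11 members, the called ones and Cs, every ERRα-null array lay below every WT array in both states, which was so for 1.87% of all genes. Tests were by limma with Benjamini-Hochberg adjustment over all 13308 genes, and values after ± are standard errors. Without the 3 arrays of female profile, the members' median difference in a limma fit of the other 9 arrays was -0.23. The calls did not hold in that fit, as given below with the other settings. That fit holds 1 exercised ERRα-null array and 2 exercised WT arrays, and assumes that the lone array varies like the other groups. Pdha1 and Idh3g are X-linked.

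**Figure D1:**
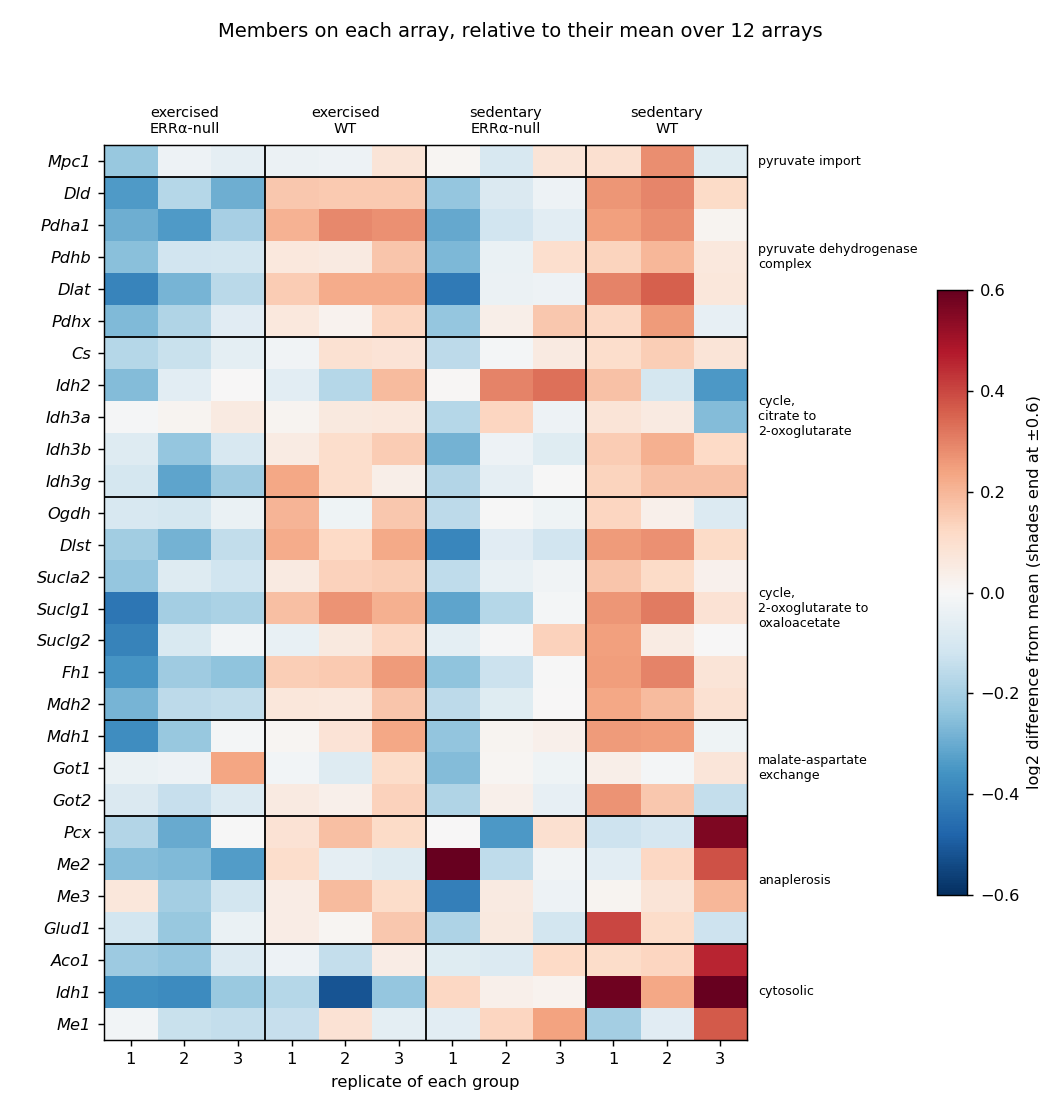
Log2 values of the 28 members (rows, ordered by role) on the 12 arrays (columns, by group), each centred on the gene's mean over all arrays, with shades ending at ±0.6. Most rows are lower on the ERRα-null arrays than on the WT arrays of the same exercise state, and Idh1 is highest on the sedentary WT arrays.

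In the pyruvate dehydrogenase complex, which commits pyruvate carbon to the cycle, all 5 measured subunits were lower and 3 passed the test. Of all genes, 49.8% were lower and 0.999% were called lower in the genotype average. Pdha1, the catalytic E1 alpha subunit and the site of the complex's phosphorylation, was 10.21, 10.17 and 10.30 in exercised ERRα-null muscle against 10.71, 10.79 and 10.78 in exercised WT muscle. At rest Pdha1 was 10.20, 10.39 and 10.44 in ERRα-null against 10.75, 10.79 and 10.52 in WT muscle. The groups did not overlap in either state, and the average difference was -0.44 ± 0.06, a 0.738-fold level (adjusted p = 0.00482). Dlat, the E2 transacetylase core, was 8.86, 8.98 and 9.10 in exercised ERRα-null muscle against 9.41, 9.48 and 9.48 in exercised WT muscle. Sedentary Dlat was 8.83, 9.22 and 9.23 in ERRα-null and 9.55, 9.61 and 9.32 in WT muscle. Dlat fell by 0.44 ± 0.08 on the log2 scale (adjusted p = 0.0193), with its lowest sedentary value on the array that carried seminal vesicle transcripts. Dld, the E3 dihydrolipoamide dehydrogenase shared with the 2-oxoglutarate dehydrogenase complex, was 10.12, 10.29 and 10.17 in exercised ERRα-null muscle and 10.62 on each of the 3 exercised WT arrays. In sedentary muscle Dld was 10.23, 10.37 and 10.43 in ERRα-null mice against 10.72, 10.75 and 10.58 in WT mice. Its average difference, -0.38 ± 0.05, had the smallest adjusted p of the members, 0.00461. Pdhb, the E1 beta subunit, at -0.23 ± 0.06 (adjusted p = 0.109) and Pdhx, the E3-binding protein, at -0.18 ± 0.08 (adjusted p = 0.345) did not pass.

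**Figure D2:**
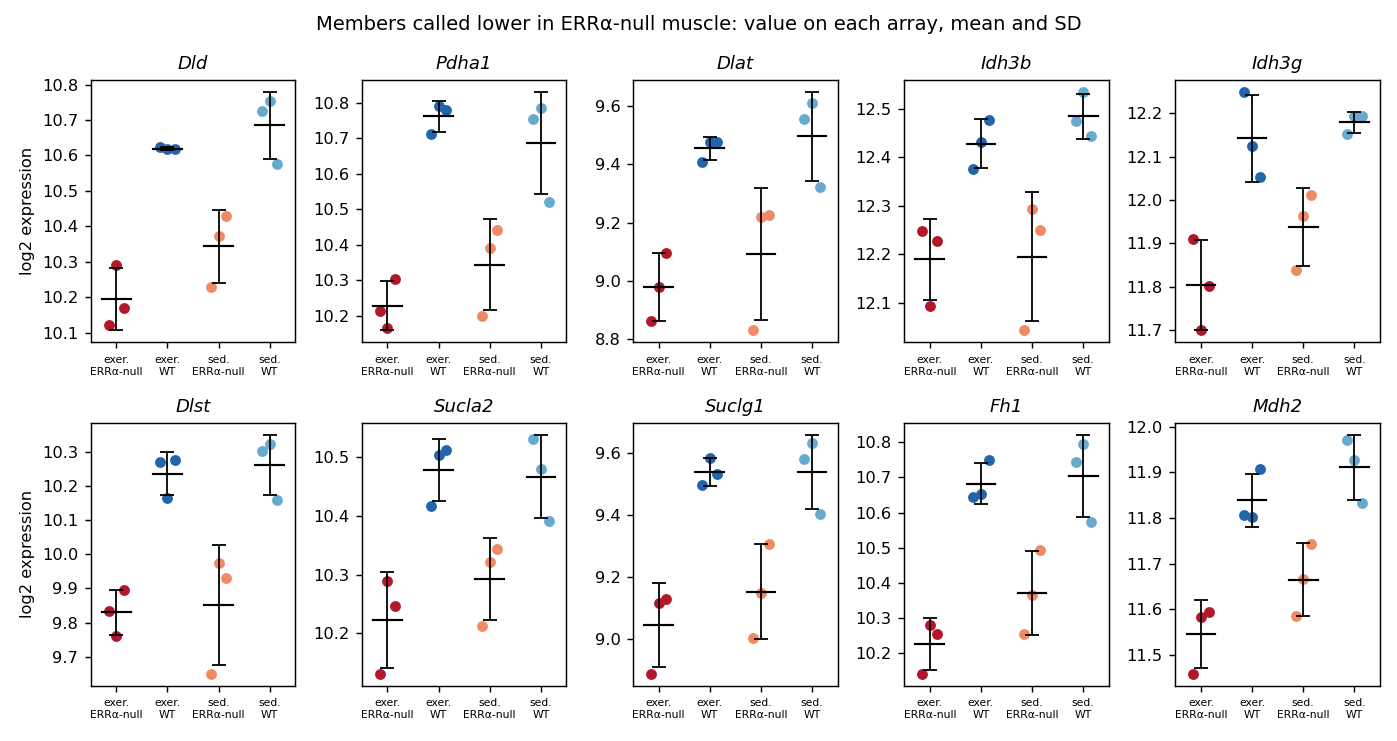
Log2 expression of the members that passed the test in the genotype average, 1 point per array with the group mean and SD, for exercised ERRα-null, exercised WT, sedentary ERRα-null and sedentary WT muscle. In every panel the 3 ERRα-null points lie below the 3 WT points of the same exercise state.

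Between citrate and 2-oxoglutarate, 2 of 5 mitochondrial members fell, against 0.999% of all genes called lower in the genotype average. The mitochondrial aconitase, on the list of other pathway genes, had no probeset with a single gene symbol and was not analysed. Idh3b and Idh3g encode regulatory subunits of NAD-dependent isocitrate dehydrogenase. Idh3g was 11.91, 11.70 and 11.80 in exercised ERRα-null muscle against 12.25, 12.12 and 12.05 in exercised WT muscle, and 11.84, 11.96 and 12.01 in sedentary ERRα-null muscle against 12.15, 12.19 and 12.19 in sedentary WT muscle. It differed by -0.29 ± 0.05 (adjusted p = 0.0141). Idh3b was 12.25, 12.09 and 12.23 in exercised ERRα-null muscle against 12.38, 12.43 and 12.48 in exercised WT muscle, and 12.04, 12.29 and 12.25 in sedentary ERRα-null muscle against 12.47, 12.54 and 12.44 in sedentary WT muscle. It differed by -0.26 ± 0.05 (adjusted p = 0.0208). The catalytic subunit Idh3a overlapped between genotypes in both states and averaged a difference of 0.00 ± 0.06, with a 95% interval of -0.14 to 0.14; whether it differs from Idh3b and Idh3g in its response was not tested. Cs, citrate synthase, did not overlap between genotypes in either state, yet its difference of -0.16 ± 0.04 did not pass (adjusted p = 0.109). Idh2, the NADP-dependent mitochondrial enzyme, was 10.66, 10.86 and 10.93 in exercised ERRα-null muscle against 10.86, 10.75 and 11.11 in exercised WT muscle. Sedentary Idh2 was 10.93, 11.22 and 11.26 in ERRα-null and 11.10, 10.82 and 10.58 in WT muscle. Its values overlapped in both states, and its average difference was 0.11 ± 0.10 (adjusted p = 0.764).

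From 2-oxoglutarate to oxaloacetate, all 7 members were lower and 5 passed, against 49.8% and 0.999% of all genes in the genotype average. Dlst, the E2 succinyltransferase of the 2-oxoglutarate dehydrogenase complex, was 9.83, 9.76 and 9.89 in exercised ERRα-null muscle against 10.27, 10.16 and 10.27 in exercised WT muscle. In sedentary muscle it was 9.65, 9.98 and 9.93 in ERRα-null mice and 10.30, 10.32 and 10.16 in WT mice. The difference was -0.41 ± 0.06 (adjusted p = 0.00765), and close to equal in both states, at -0.40 after exercise and -0.41 at rest. Ogdh, the E1 subunit of the same complex, was lower by less, at -0.14 ± 0.05 (adjusted p = 0.26). Suclg1, the alpha subunit shared by both succinyl-CoA ligases, was 8.89, 9.12 and 9.13 in exercised ERRα-null muscle against 9.50, 9.59 and 9.53 in exercised WT muscle. At rest it was 9.003, 9.15 and 9.31 in ERRα-null and 9.58, 9.63 and 9.40 in WT muscle, and it differed by -0.44 ± 0.07 (adjusted p = 0.00812). Of the beta subunits, Sucla2 of the ADP-forming ligase was 10.13, 10.29 and 10.25 in exercised ERRα-null muscle against 10.42, 10.50 and 10.51 in exercised WT muscle. Sedentary Sucla2 was 10.21, 10.32 and 10.34 in ERRα-null and 10.53, 10.48 and 10.39 in WT muscle. Its difference of -0.22 ± 0.05 passed narrowly (adjusted p = 0.0473) and failed in 17 of 21 alternative settings. Suclg2 of the GDP-forming ligase, at -0.14 ± 0.08, did not pass (adjusted p = 0.482).

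The last steps of the cycle were also lower. Fh1, fumarase, was 10.14, 10.28 and 10.26 in exercised ERRα-null muscle against 10.64, 10.65 and 10.75 in exercised WT muscle. Sedentary Fh1 was 10.25, 10.37 and 10.49 in ERRα-null and 10.74, 10.80 and 10.57 in WT muscle, a difference of -0.39 ± 0.06 averaged over states (adjusted p = 0.00553). Mdh2, mitochondrial malate dehydrogenase, was 11.46, 11.58 and 11.59 in exercised ERRα-null muscle against 11.81, 11.80 and 11.91 in exercised WT muscle, and 11.58, 11.67 and 11.74 in sedentary ERRα-null muscle against 11.97, 11.93 and 11.83 in sedentary WT muscle. It differed by -0.27 ± 0.04 (adjusted p = 0.0122). Neither gene overlapped between genotypes in either state, while 1.87% of all genes were lower without overlap in both states.

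In the genotype average, no member of malate-aspartate exchange (3), anaplerosis (4), pyruvate import (1) or the cytosolic enzymes (3) passed the test. By limma at an unadjusted p under 0.05 there were 2, 2, 0 and 2 of them, against 12.4% of all genes. In the same order, 3, 4, 1 and 2 were lower in ERRα-null muscle, against 49.8% of all genes. Mdh1, the cytosolic malate dehydrogenase of the shuttle, differed by -0.27 ± 0.08 (adjusted p = 0.144). The aspartate aminotransferases Got2 of the mitochondrion, at -0.17 ± 0.06, and Got1 of the cytosol, at -0.04 ± 0.06, had adjusted p-values of 0.286 and 0.884. Among enzymes that feed the cycle, Pcx, pyruvate carboxylase, was at -0.24 ± 0.12, Me3 of the mitochondrial malic enzymes at -0.21 ± 0.08, Glud1, glutamate dehydrogenase, at -0.20 ± 0.08 and Me2 at -0.14 ± 0.12. Mpc1 differed by -0.11 ± 0.06. The cytosolic Aco1, which doubles as an iron-sensing RNA-binding protein, was at -0.19 ± 0.07, Idh1 at -0.26 ± 0.10 and Me1, the cytosolic malic enzyme, at 0.00 ± 0.09. Got2, Me3, Mpc1 and Suclg2 each have a second, dimmer probeset, which gave 0.03, 0.01, -0.09 and -0.18 in the genotype average.

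**Figure D3:**
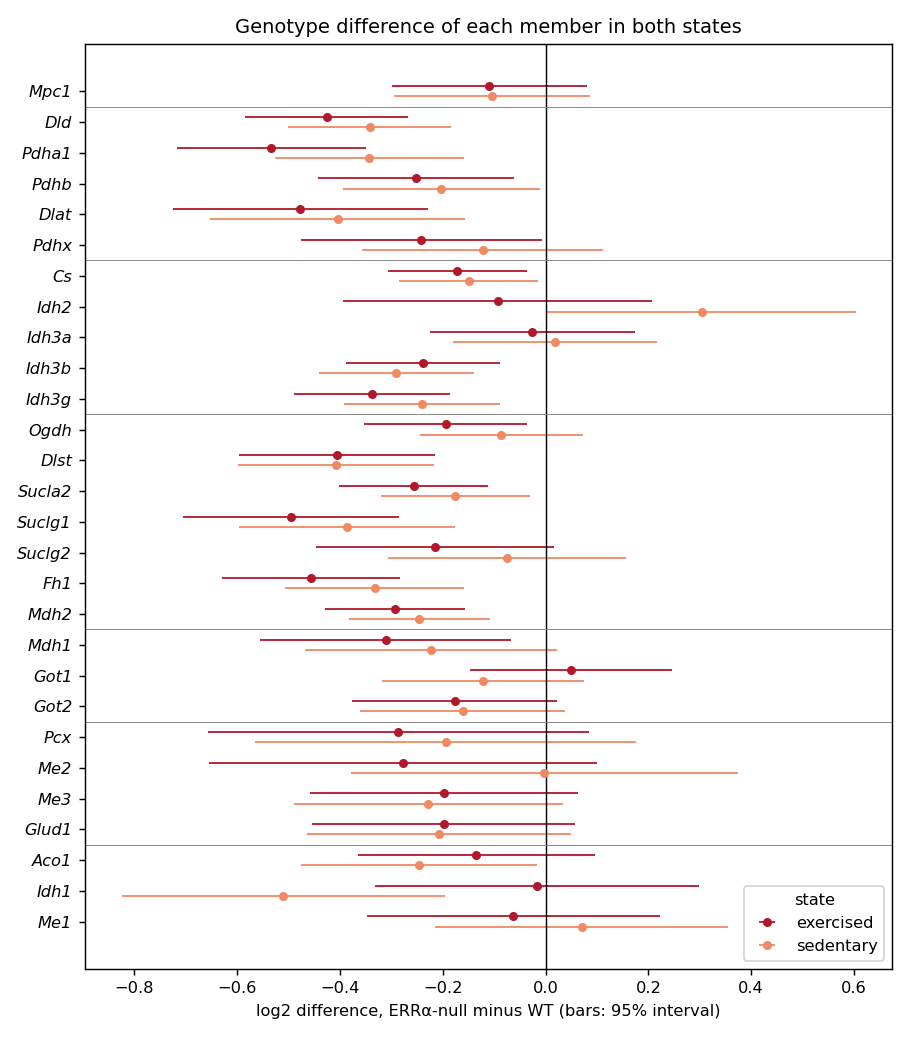
Log2 difference, ERRα-null minus WT, of the 28 members after exercise and at rest, with 95% intervals from the limma fit. In both states 24 members lie below 0, and Idh1 and Idh2 are furthest apart between the states.

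Genotype after exercise gave 3 called members, all lower in ERRα-null muscle, against 0.286% of all genes called lower. Pdha1 differed by -0.53 ± 0.08 (adjusted p = 0.0244), Fh1 by -0.46 ± 0.08 (adjusted p = 0.0389) and Dld by -0.43 ± 0.07 (adjusted p = 0.0358). Of the 28 members 27 were lower, against 49.6% of all genes, with a median of -0.24, and 15 had an unadjusted p under 0.05, against 10.4%. In 19 the 3 ERRα-null arrays lay wholly below the 3 WT arrays, compared with 9.31% of all genes. Pairing of the exercised arrays by replicate number was taken from correlations in the data, not from the labels. Replicate 3 was of female profile in both exercised groups and replicate 1 in neither, and what the correlations reflect was not tested. With the number as a block in a limma fit of these 6 arrays, Pdha1 and Fh1 passed (adjusted p = 0.0314 and 0.0421) and Dld did not (0.0502). Suclg1 and Dlat were gained in that fit (0.0493 each). With the block over all 12 arrays 0 members passed, Dld and Pdha1 at 0.0516 and Fh1 at 0.0621. Leaving out any 1 of the 6 exercised arrays left 0 of the 3 calls, with Pdha1 between -0.57 and -0.50, Fh1 between -0.48 and -0.41 and Dld between -0.47 and -0.39. Without the 3 arrays of female profile, where 1 ERRα-null array was set against 2 WT arrays, the differences were -0.54, -0.51 and -0.50 for Pdha1, Fh1 and Dld, and none passed.

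Genotype in sedentary muscle gave 0 called members by limma, against 0.0827% of all genes called and 0.0301% called lower. At an unadjusted p under 0.05 there were 15 of 28, against 8.22% of all genes. The direction was the same in most members, with 25 of 28 lower, against 50.4% of all genes, and a median of -0.20. In all, 12 members did not overlap between genotypes, compared with 6.53% of all genes. The furthest from 0 were Idh1 at -0.51 ± 0.14 (adjusted p = 0.28), Dlst at -0.41 ± 0.09 (adjusted p = 0.137) and Dlat at -0.40 ± 0.11 (adjusted p = 0.273). Sedentary ERRα-null replicate 1, the array with seminal vesicle transcripts, held its group's lowest value for 23 of the 28 members, and without it the members' median difference was -0.15. Sedentary WT replicate 3 held its group's lowest value for 20 members and replicate 2 for 2 members. In replicates 3 and 2, Ucp1 was 10.93 and 10.82, and the skeletal muscle markers had means of 12.79 and 12.99. The adipocyte markers had means of 9.87 and 8.76 there, and the liver markers 5.69 and 7.73. Whether these bear on the members' values was not tested. The slow fibre markers moved the other way: 6 of 6 were higher in sedentary ERRα-null muscle, with array means of 9.04 to 9.61 against 8.50 to 9.18 in sedentary WT muscle, and 0 called by limma (5 at an unadjusted p under 0.05). Their part in the members' differences was not tested.

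Set side by side, 24 members were lower in ERRα-null muscle both after exercise and at rest, as were 28.8% of all genes, and 12 had a 95% interval below 0 in both states, as did 1.74%. The 2 comparisons share no array, but they share the fit's estimate of the spread. The difference after exercise was further below 0 in 21 of 28 members, with a median change of -0.08 against -0.002 over all genes. The share of all genes with such a change is not given here. The test of that change itself, the interaction of genotype and exercise, called 0 members, with 1 (Idh1) at an unadjusted p under 0.05 against 0.00751% of all genes called and 5.12% at an unadjusted p under 0.05.

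Acute exercise changed 1 member past the threshold, Idh1, the cytosolic NADP-dependent isocitrate dehydrogenase. In WT muscle 1 of 28 members was called lower, Idh1, and 0 were called higher, against 1.21% of all genes called lower. Counts of all genes called in either direction are given with the other settings. Idh1 was 7.77, 7.42 and 7.71 in exercised WT muscle and 8.52, 8.17 and 8.83 in sedentary WT muscle. The groups did not overlap, and the difference was -0.88 ± 0.14, a 0.545-fold level (limma, adjusted p = 0.0059). The 10 members that fell by genotype had exercise differences of -0.07 to 0.07 in WT muscle, and none of these passed. In ERRα-null muscle 0 of 28 members were called by limma (3 at an unadjusted p under 0.05), against 0.639% of all genes called and 13.1% at an unadjusted p under 0.05. Idh1 there was 7.57, 7.56 and 7.72 after exercise and 8.07, 7.97 and 7.96 at rest, a difference of -0.38 ± 0.14 (adjusted p = 0.279). The other members at an unadjusted p under 0.05 were Idh2, at -0.32 ± 0.14, and Me2, at -0.43 ± 0.17.

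Averaged over genotypes, Idh1 was again the 1 member called lower after exercise, at -0.63 ± 0.10 (adjusted p = 0.0035), and 0 were called higher. Of all genes 3.43% were called lower, so this count does not set the 28 members apart. Aco1 was 7.52, 7.51 and 7.66 in exercised ERRα-null muscle against 7.67, 7.66 and 7.86 in sedentary ERRα-null muscle, and 7.71, 7.60 and 7.79 in exercised WT muscle against 7.85, 7.87 and 8.20 in sedentary WT muscle. Aco1 and Idh1 were the 2 members that lay lower after exercise without overlap in both genotypes, as did 3.42% of all genes. The Aco1 difference of -0.22 ± 0.07 did not pass (adjusted p = 0.105). Me2 was 6.12, 6.11 and 6.05 in exercised ERRα-null muscle against 6.99, 6.23 and 6.36 in sedentary ERRα-null muscle, and 6.49, 6.32 and 6.30 in exercised WT muscle against 6.32, 6.50 and 6.76 in sedentary WT muscle. Its highest value was on the array with seminal vesicle transcripts, and its average difference of -0.29 ± 0.12 did not pass (adjusted p = 0.18).

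Markers of liver and fat varied among the arrays that set the Idh1 difference. Which of these tissues, if any, bears on Idh1 was not tested separately. The covariate fit given below took the liver, adipocyte and B cell scores together. Sedentary WT replicate 3, with Idh1 at 8.83, had the highest adipocyte score, the mean of 6 markers, at 9.87 but a liver score of 5.69. Sedentary WT replicate 1, with Idh1 at 8.52, had the highest liver score at 10.41 but the lowest adipocyte score at 7.39. Sedentary WT replicate 2, with Idh1 at 8.17, had an adipocyte score of 8.76 and a liver score of 7.73. Sedentary ERRα-null replicates 1 and 3 had adipocyte scores of 9.43 and 9.23 with Idh1 at 8.07 and 7.96. The 6 adipocyte markers had array means of 7.84 to 8.53 in exercised WT muscle and 7.39 to 9.87 in sedentary WT muscle. The 6 liver markers had 6.15 to 8.28 in exercised WT and 5.69 to 10.41 in sedentary WT muscle. The 6 brown fat markers, some of which muscle also expresses, had 8.45 to 8.77 in exercised WT and 8.33 to 10.10 in sedentary WT muscle. Of the adipocyte markers 5 of 6, and of the liver markers 5 of 6, were lower in exercised than in sedentary WT muscle, with 0 called by limma (0 at an unadjusted p under 0.05). With liver, adipocyte and B cell scores as covariates, a setting added after the data were seen, Idh1 stayed called in WT muscle at -0.85 (adjusted p = 0.0406), and in the average over genotypes it was -0.57 and no longer passed (adjusted p = 0.0854). Without the 3 arrays of female profile it was -0.91 in WT muscle (adjusted p = 0.0481) and -0.67 in the average (adjusted p = 0.0755). In WT muscle its difference failed in 1 of 17 settings, the fit of only the 6 arrays compared (adjusted p = 0.058).

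**Figure D4:**
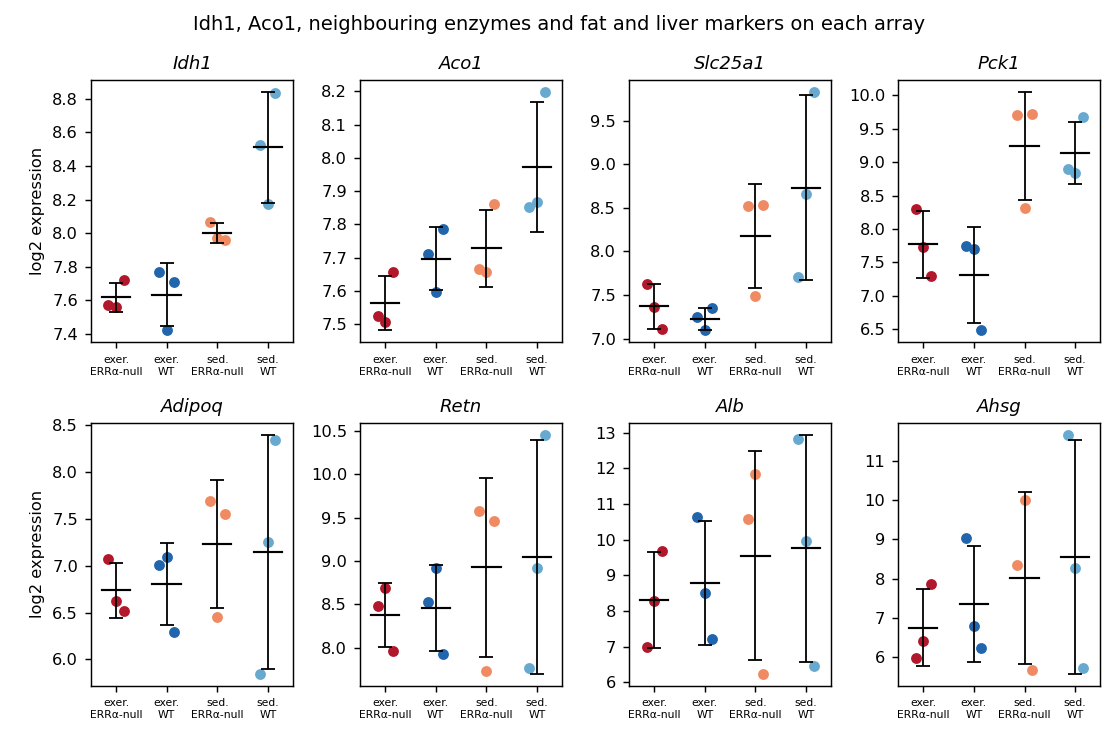
Log2 expression on each of the 12 arrays, with group mean and SD, of Idh1, Aco1, Slc25a1 and Pck1 and of fat (Adipoq, Retn) and liver (Alb, Ahsg) markers. Idh1 is highest on the 3 sedentary WT arrays, 8.17 to 8.83, and the liver and fat markers vary most among the sedentary arrays.

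Of the other genes of the pathway, 38 of 44 listed were tested and 5 fell by genotype in the average, against 0.999% of all genes. Sdha, the flavoprotein subunit of succinate dehydrogenase, which links the cycle to the respiratory chain, was 10.84, 10.94 and 11.01 in exercised ERRα-null muscle against 11.43, 11.27 and 11.37 in exercised WT muscle, and 10.95, 11.10 and 11.18 in sedentary ERRα-null muscle against 11.50, 11.48 and 11.38 in sedentary WT muscle. It differed by -0.40 ± 0.05 (adjusted p = 0.00402), and Sdhaf2, the factor that flavinates it, by -0.36 (adjusted p = 0.00636). All 8 genes of the succinate dehydrogenase list were lower and 2 passed. Pdpr, the regulatory subunit of pyruvate dehydrogenase phosphatase, differed by -0.42 (adjusted p = 0.0175), Ndufab1, the mitochondrial acyl carrier protein on which lipoate precursors are built, by -0.39 (adjusted p = 0.00645) and the alanine aminotransferase Gpt2 by -0.28 (adjusted p = 0.0489, passing in 3 of 21 alternative settings). Of the 6 lipoate attachment genes Ndufab1 alone passed, Lias, lipoyl synthase, standing at -0.11 (adjusted p = 0.565). Of the 5 mitochondrial carriers tested none passed, with 1 at an unadjusted p under 0.05, Slc25a11, the 2-oxoglutarate carrier, at -0.18 (adjusted p = 0.331). In exercised muscle 1 of the 38 was called, Sdha at -0.43 (limma, adjusted p = 0.0358), against 0.286% of all genes called lower. With the replicate block on the 6 exercised arrays Sdha did not pass (0.0573).

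Of 6 kinase and phosphatase genes tested that set pyruvate dehydrogenase activity, exercise changed 2 in WT muscle, Pdk4 higher and Pdp1 lower, and 1 in ERRα-null muscle, Pdp1. Of all genes, 1.21% were called lower in WT muscle, and 0.639% were called in either direction in ERRα-null muscle. Pdk1, Pdk2, Pdp2 and Pdpr passed in neither genotype, with differences of -0.18 to 0.10 in ERRα-null and -0.13 to 0.05 in WT muscle. Pdk4, a kinase that inactivates the complex, was 12.08, 11.76 and 11.71 in exercised ERRα-null muscle against 12.41, 12.29 and 12.19 in exercised WT muscle, and 11.75, 11.66 and 11.52 in sedentary ERRα-null muscle against 10.85, 10.76 and 10.88 in sedentary WT muscle. It was higher in ERRα-null than in WT muscle at rest by 0.81 ± 0.10 (adjusted p = 0.0159), without overlap. The exercise difference of Pdk4 was 0.21 ± 0.10 in ERRα-null muscle (adjusted p = 0.391) and 1.47 ± 0.10 in WT muscle (adjusted p = 9.75e-06). Pdp1, the catalytic phosphatase that reactivates the complex, was 8.23, 8.03 and 7.94 in exercised ERRα-null muscle against 8.84, 8.95 and 9.22 in sedentary ERRα-null muscle, and 8.34, 7.84 and 8.10 in exercised WT muscle against 9.21, 9.12 and 9.23 in sedentary WT muscle. It fell by 0.93 ± 0.13 in ERRα-null muscle (adjusted p = 0.00614) and by 1.09 ± 0.13 in WT muscle (adjusted p = 0.000593). In WT muscle Glul, glutamine synthetase, rose by 0.72 ± 0.10 (adjusted p = 0.00225) and Pck1, cytosolic phosphoenolpyruvate carboxykinase, fell by 1.83 ± 0.43 (adjusted p = 0.0407, passing in 6 of 17 alternative settings). Slc25a1, the citrate carrier, was called in the exercise average at -1.16 ± 0.30 (adjusted p = 0.0382, passing in 11 of 21 alternative settings, with values of -1.41 to -0.88). Pck1 and Slc25a1 are abundant in liver and fat, whose markers varied among the sedentary arrays. With the liver, adipocyte and B cell scores as covariates, Pck1 in WT muscle was -1.52 (adjusted p = 0.0278) and Slc25a1 in the average was -0.997 (adjusted p = 0.00608).

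**Figure D5:**
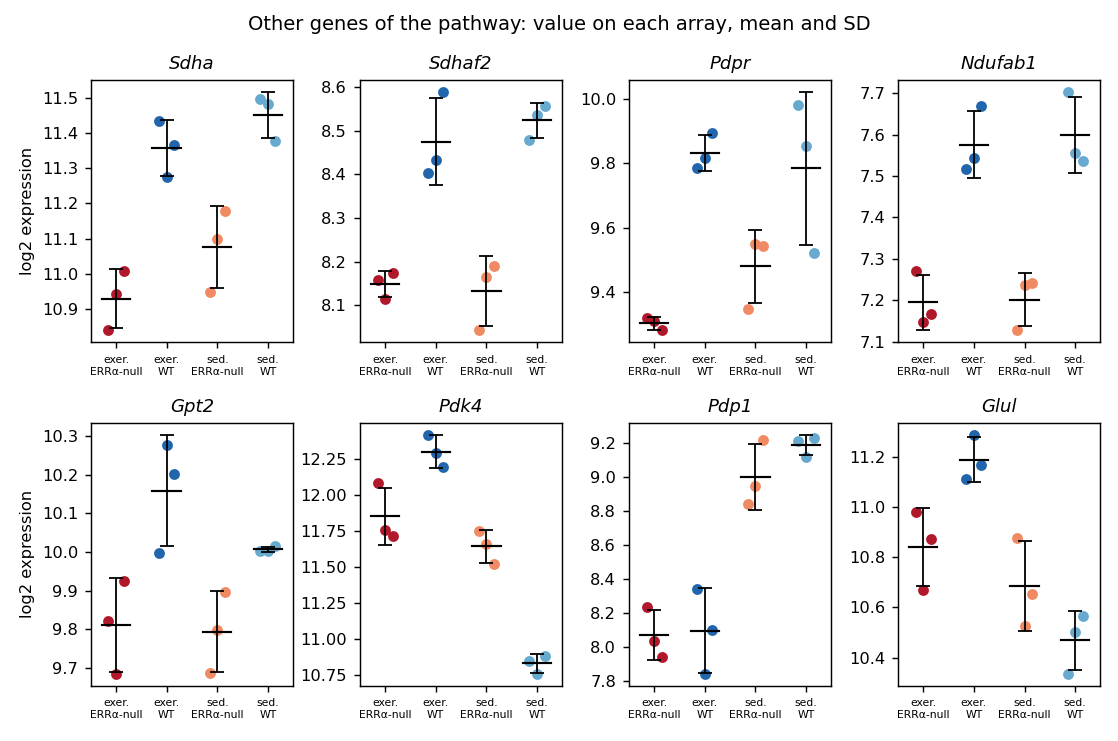
Log2 expression of called genes of the wider pathway that are not among the 28 members, 1 point per array with the group mean and SD. Sdha is lower in ERRα-null muscle in both states, Pdp1 is lower after exercise in both genotypes, and Pdk4 is lowest in sedentary WT muscle.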

How the data were processed

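Deposited log2 expression values of 12 arrays were used. The tools named in the submitters' processing notes are Affymetrix Expression Console, Transcriptome Analysis Console and RMA, with which the authors made the log2 values. Software versions and genome build were not given in the sources used here. RMA puts the arrays on a common distribution, so differences are relative to the bulk of transcripts. Array medians ran from 5.15 to 5.26 and correlations across genes from 0.970 to 0.993, and no arrays were identical. Arrays have no read depth, and their number limits the precision.

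The platform table gives 23521 of 41345 probesets 1 gene symbol. The highest-mean probeset stood for a gene, and the 40% of genes with the lowest mean, under 5.32, were left out. Limma 3.58.1 (R 4.3.3) was fitted to 4 group means with 8 residual degrees of freedom and an intensity trend in eBayes. P-values were two-sided, adjusted by Benjamini-Hochberg over 13308 genes in each of 7 comparisons, and a gene was called at an adjusted p under 0.05. The model was tested on simulated data. The labels call the 3 arrays of a group biological replicates.

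The members and gene lists were chosen with earlier results of these data known. By rule, every member is named, and array values are given for Esrra, called members and up to 3 members per comparison with the largest difference. Of the other pathway genes, those called are named, or otherwise up to 2 per list with the smallest p. Other settings were the filter, probeset rule, centring, trend, array weights, arrays fitted, replicate block and leaving out arrays. Whether replicate numbers pair the arrays was checked by the correlation of deviations from the group means across genes, which was 0.31, 0.21 and 0.17 for genotype after exercise, so these were taken as paired from the data. It was -0.23, -0.28 and 0.35 at rest, 0.27, 0.06 and 0.16 for exercise in WT muscle and 0.04, -0.15 and -0.01 in ERRα-null muscle, which were not. No cutoff for pairing was set out, and the correlations for exercise in WT muscle were also all positive. The main fit did not use the pairing, which entered only as the replicate block among the other settings. Promoter windows came from RefSeq (GRCm38.p6), and figures were drawn with matplotlib 3.10.9.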

Additional observations from a re-analysis of the deposited data

Results flagged for a closer look

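Pdk4 responded differently to exercise in the 2 genotypes: its interaction of genotype and exercise, the exercise difference in ERRα-null muscle minus that in WT muscle, was -1.26 ± 0.14 on the log2 scale (limma, adjusted p = 0.0121). The exercise difference was 0.21 in ERRα-null and 1.47 in WT muscle. Pdk4 was the 1 gene called for the interaction among 13308, and no TCA cycle or pyruvate entry member was called. It passed in 15 of 21 alternative settings, with values between -1.38 and -1.09 and adjusted p-values between 0.00121 and 0.0709. Without the 3 arrays of female sex-chromosome profile it was -1.09 (adjusted p = 0.0645), a fit in which exercised ERRα-null muscle has 1 array and takes its spread from the remaining groups.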

How the results depend on the processing

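No called direction was reversed in the settings run. The number of members called for genotype on average was 10 and ran from 7 to 11 when 1 array was left out, and it was 0 without the 3 arrays of female sex-chromosome profile, which leaves 9 arrays and 1 exercised ERRα-null array among them. For genotype after exercise the 3 calls became 7 with array weights, 1 with arrays centred on their median, 1 with no filter on dim genes, 0 with no intensity trend, 0 with only the arrays compared, 0 without the arrays of female profile, and 0 to 0 when 1 array was left out. For genotype at rest the 0 calls became 1, Dld, with array weights. For exercise in WT muscle the 1 call became 0 with only the arrays compared. For exercise on average the 1 call became 0 with liver, adipocyte and B cell scores as covariates and 0 without the arrays of female profile. The last setting and the covariates were chosen after seeing the data, and the causes were not tested. Of the 10 members called for genotype on average, Sucla2 passed in 4, Idh3b in 15 and Dlat in 16 of 21 settings, and the other 7 in 20 of 21.

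In a fit of all 12 arrays that had the replicate block, genotype after exercise gave 0 members, genotype on average 9, with Sucla2 lost, and exercise on average 2, with Aco1 gained. Beyond these and the values beside the exercised comparison, the block changed no other call of a member.

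Counts over all genes moved more. Called genes for genotype numbered 50 after exercise (5 to 161 over the other settings, 2 to 17 with 1 array left out), 11 at rest (1 to 53, and 1 to 9) and 190 on average (6 to 363, and 79 to 251). For exercise they numbered 85 in ERRα-null muscle (0 to 268, and 32 to 93), 457 in WT muscle (143 to 546, and 221 to 354) and 874 on average (172 to 1269, and 543 to 933), and for the interaction 1 (1 to 2, and 0 to 6).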
